A study of Homo sapiens with 4 samples.

Results

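FACT (facilitates chromatin transcription) is a histone chaperone made of 2 subunits, SSRP1 and SUPT16H, and SUPT6H and SUPT5H encode SPT6 and SPT5, proteins that travel with RNA polymerase II during elongation. These 4 genes were chosen by name, with earlier results of these data known, and all 4 were among the 14812 genes named in the table. Gene expression was measured in BE(2)C, an established human neuroblastoma cell line grown in DMEM with fetal calf serum. 2 samples were transfected with siRNA against SSRP1 and 2 with non-targeting control siRNA, both with a cationic lipid reagent, and RNA was taken 72 hours later. Each sample was hybridised to 1 Affymetrix Human Gene 2.0 ST array from 100 ng of RNA. The labels cite a single catalogue siRNA for SSRP1, so an effect of SSRP1 loss and an effect of that siRNA on other transcripts cannot be told apart. Whether the replicates came from separate cultures is not stated, and the spread behind each p-value may thus be purely technical.

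Nucleosomes block the polymerase. FACT loosens the contacts of histones H2A and H2B with the rest of the nucleosome and helps to put them back, SSRP1 contributing an HMG box that binds DNA and SUPT16H the larger subunit with an acidic tail that binds histones. SPT6 is a histone chaperone that holds on to the elongating polymerase, and SPT5 forms the DSIF complex with SPT4 (gene SUPT4H1), which first takes part in pausing and then, once phosphorylated by P-TEFb, in productive elongation. In neuroblastoma FACT is known as a chromatin factor of fast-growing tumours and as a complex that curaxin drugs affect.

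The promoters of the FACT pair are shown because the transcripts of these partners are compared below. Both are the 250 bases before the annotated start in RefSeq (GRCh38.p14), written 5′ to 3′ on the minus strand, at chr11:57335893-57336142 for SSRP1 and chr14:21384020-21384269 for SUPT16H. Capitals mark the E-box CACGTG, bound by MYC-family proteins among others, and the ETS motif CCGGAAG or its reverse complement CTTCCGG.
SSRP1: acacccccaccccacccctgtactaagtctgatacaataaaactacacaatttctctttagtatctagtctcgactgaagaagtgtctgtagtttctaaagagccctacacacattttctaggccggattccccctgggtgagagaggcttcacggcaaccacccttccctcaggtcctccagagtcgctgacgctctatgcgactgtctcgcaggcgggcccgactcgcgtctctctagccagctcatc
SUPT16H: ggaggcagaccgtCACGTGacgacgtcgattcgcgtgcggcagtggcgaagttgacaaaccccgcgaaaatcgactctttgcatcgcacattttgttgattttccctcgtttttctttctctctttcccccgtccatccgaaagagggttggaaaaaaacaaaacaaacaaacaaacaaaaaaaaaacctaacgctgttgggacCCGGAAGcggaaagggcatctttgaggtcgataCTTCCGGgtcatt
The SUPT16H window held 1 E-box, which begins 237 bases before the start, and 2 ETS matches, which begin 46 and 13 bases before it. The SSRP1 window held neither motif. Over the windows of the same length of 35116 promoters, 6.34% held the E-box and 8.52% the ETS motif on either strand. The SSRP1 window held 11 CG pairs, the median of all promoters, and the SUPT16H window held 21. The SUPT6H window and both annotated SUPT5H windows held neither the E-box nor the ETS motif as spelled above. The motif AAGATGG, the core of YY1 sites, was in both SUPT5H windows and in 3.7% of all promoters on either strand. The SUPT5H windows overlap, and their match is the same single site. None of the 5 windows held TATAAA or CCAAT on either strand, against 10.7% and 32% of all promoters. Only these exact letters were counted. The similar string CCGGAAA, present in the SUPT6H window and both SUPT5H windows, was not counted, and its share of all promoters was not computed. A match is a description of letters, and the arrays measured no binding.

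All 4 arrays gave values on nearly the same scale. Their medians over 46255 probe sets lay between 3.37 and 3.42, and Pearson correlations over all probe sets were 0.991 within the SSRP1 siRNA arrays, 0.993 within the control arrays and 0.990 to 0.991 across groups. The line's identity was checked on adrenergic neuroblastoma markers. Of 10 such markers 9 were named in the table, and all 9 had means above the median gene (4.64), from 6.52 for TH to 9.60 for CHGA. Their summed level (log2 of the sum of linear values) was 11.85 and 11.92 with SSRP1 siRNA and 11.97 on both control arrays. Such a sum gives most weight to the brightest markers. The 2 brightest by mean over the 4 arrays, CHGA and DDC, had log2 changes of 0.34 and 0.43, opposite to the sum, while the other 7 lay below 0. With control siRNA DBH had a higher mean than CHGA or DDC, 9.59, and with SSRP1 siRNA its mean was 8.81. The median change of the 9 was -0.24, the lowest was DBH at -0.77 (limma adjusted p = 0.111), and none passed the test. Of 6 fibroblast markers 2 were named, DCN at a mean of 2.59 and LUM at 7.87, and their summed level was 8.38 and 8.61 with SSRP1 siRNA, against 6.98 and 7.68 with control siRNA. LUM carried that difference, with a log2 change of 1.20 (limma adjusted p = 0.184) against -0.04 for DCN. For Schwann and glial cells 2 of 5 markers were named, S100B and SOX10, with sums of 6.19 and 6.35 with SSRP1 siRNA, against 6.02 and 6.03 with control siRNA. For blood and endothelial cells 2 of 5 were named, CD2 and VWF, both below the median gene, with sums of 4.24 and 4.33 with SSRP1 siRNA, against 4.45 and 4.49 with control siRNA. S100B had a log2 change of 0.47 against 0.04 for SOX10, and CD2 had one of -0.27 against -0.06 for VWF. The sums of all these marker lists did not overlap between the groups, and neither did 44.3% of all single genes. The part of the sums in the results was not tested. In such bulk samples fewer cells of a type and less RNA per cell cannot be told apart.

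Among these genes SSRP1 fell strongly, while its partner SUPT16H lay between 9.68 and 9.81 on all 4 arrays. SUPT6H and SUPT5H had higher values on both SSRP1 siRNA arrays than on both control arrays, as did 21.8% of all genes, and neither passed the test over all genes. The test was limma with Benjamini-Hochberg adjustment, passed at an adjusted p under 0.05, and every change is SSRP1 siRNA minus control siRNA on the log2 scale.

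**Figure D1:**
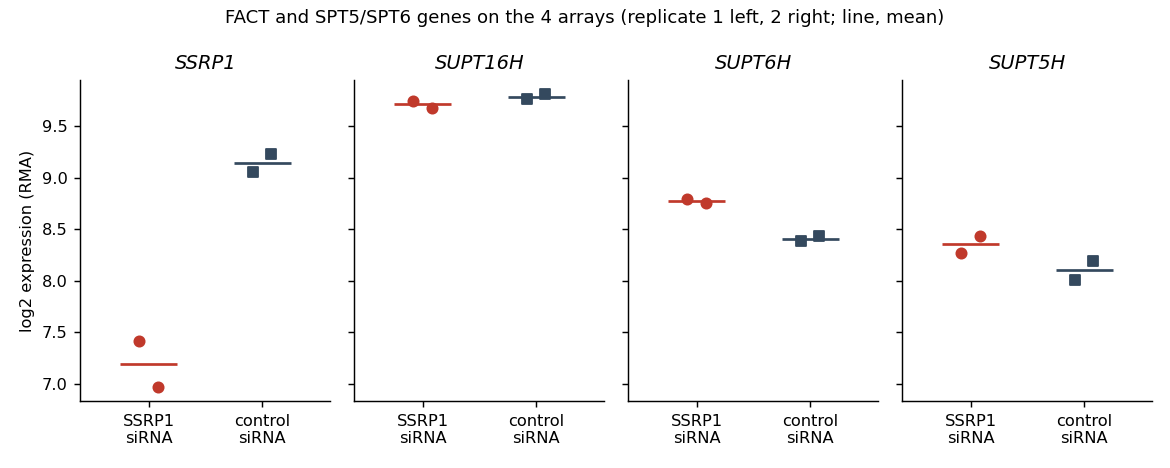
Log2 expression (y axis, RMA values) of each gene on the 2 SSRP1 siRNA arrays (red circles) and the 2 control siRNA arrays (dark squares), with a line at each group's mean. SSRP1 lies far lower with SSRP1 siRNA, SUPT16H is nearly level, and SUPT6H and SUPT5H are higher with SSRP1 siRNA. Levels of different genes come from different probes and are not compared.

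SSRP1, the DNA-binding FACT subunit and the siRNA target, had log2 values of 7.42 and 6.97 with SSRP1 siRNA, against 9.05 and 9.23 with control siRNA. Both SSRP1 siRNA arrays lay below both control arrays, and the lower of them was replicate 2. The change of -1.95 ± 0.17 (SE) left 26.0% of the control level, with an interval of 19.3 to 34.8% (95%), and its limma adjusted p was 0.0479. It was the largest fall among all 14812 genes and the 4th largest change in either direction. Only 2 genes (0.0135%) passed the test in the downward direction, and 14 genes (0.0945%) in either. The SSRP1 arrays also spread more than most genes: the residual SD was 0.241, at percentile 88.6 of all genes. The call was lost when any 1 array was left out, with changes from -2.17 to -1.72 and adjusted p from 0.241 to 0.599. In those fits 1 residual degree of freedom remained and the array left alone was assumed to vary like the other group. Robust variances gave an adjusted p of 0.0512 and a fit over all probe sets one of 0.144. With a variance trend the adjusted p was 0.00314, and among genes at or above the median level it was 0.00625. Quantile normalization, median centring and averaged probe sets gave 0.0250 to 0.0483.

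SUPT16H, the histone-binding FACT subunit, had log2 values of 9.75 and 9.68 with SSRP1 siRNA, against 9.77 and 9.81 with control siRNA. The groups did not overlap, but the highest SSRP1 siRNA value lay only just under the lowest control value. The change was -0.07 ± 0.10 (SE), with a limma adjusted p of 0.821. Its interval, 80.2 to 113% of the control level (95%), excludes a fall of the size measured for SSRP1 and does not exclude a smaller change in either direction. A lack of overlap in this direction was seen for 22.5% of all genes.

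The FACT partners were set against each other within each array. The within-array difference of SSRP1 minus SUPT16H was -2.33 and -2.71 with SSRP1 siRNA and -0.72 and -0.58 with control siRNA. The difference between the changes was -1.87, in the same direction for every pairing of arrays across the groups. An exact permutation test over arrays (two-sided) gave p = 0.333 (0.5 after adjustment over 3 pairs of genes), which is the smallest p that 2 against 2 arrays allow. Both probe sets are summarised from their own probes, so these differences describe a change in the ratio and not the ratio of the 2 transcripts.

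SUPT6H, which encodes the histone chaperone SPT6, had log2 values of 8.79 and 8.75 with SSRP1 siRNA, against 8.38 and 8.43 with control siRNA. The gap between the groups was several times the distance between replicates, and the residual SD of 0.033 was at percentile 7.6 of all genes. The change was 0.37 ± 0.10 (SE), or 129% of the control level with an interval of 109 to 153% (95%). Its limma p was 0.0109 before and 0.265 after adjustment, so it did not pass, and it ranked 607th of all genes by p. 12 genes (0.081%) passed in the upward direction. An unadjusted p under 0.05 in the upward direction was reached by 6.56% of all genes. Where the variance prior was allowed to follow the signal level the limma adjusted p was 0.0523. With the dimmer genes, under the median level, left out it was 0.0844. Over all probe sets it was 0.520. Robust variances, quantile normalization, median centring and averaged probe sets gave 0.247 to 0.274, so most of these settings left the rise far from passing.

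**Figure D2:**
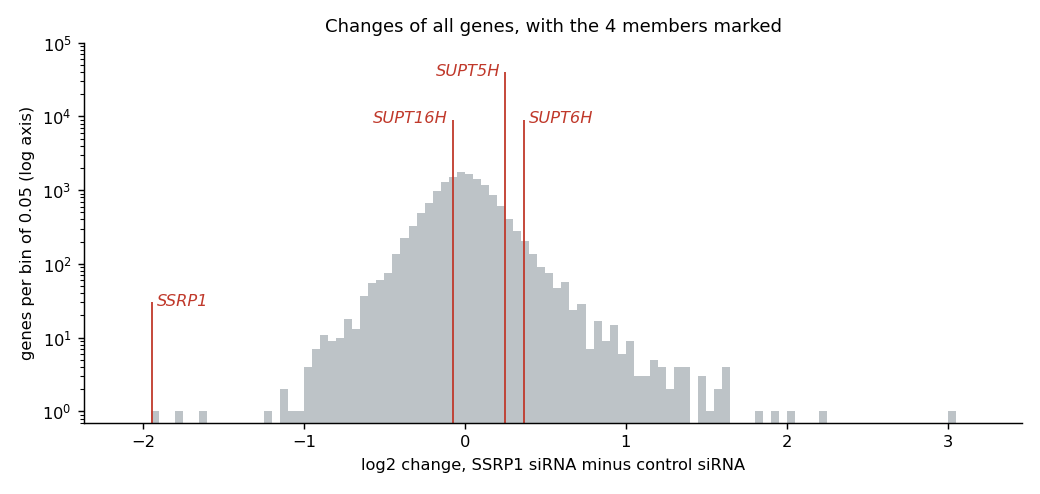
Histogram of the log2 change, SSRP1 siRNA minus control siRNA (x axis, bins of 0.05), of all 14812 genes, with the number of genes on a log y axis and red lines at the 4 genes. SSRP1 lies at the far left end, SUPT16H (-0.07) near the centre, and SUPT5H (0.25) and SUPT6H (0.37) on the upper shoulder.

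SUPT5H, which encodes the SPT5 subunit of DSIF, had log2 values of 8.27 and 8.44 with SSRP1 siRNA, against 8.01 and 8.19 with control siRNA. The groups did not overlap, by less than the distance between replicates within each group. The change was 0.25 ± 0.12 (SE), or 119% of the control level with an interval of 96.7 to 147% (95%), and the limma p was 0.0857 before and 0.476 after adjustment. Non-overlap in the upward direction was seen for 21.8% of all genes. Its partner in DSIF, SUPT4H1, had log2 values of 8.34 and 8.35 with SSRP1 siRNA, against 8.29 and 8.33 with control siRNA. That is a change of 0.04 ± 0.10 (SE) with a limma adjusted p of 0.915.

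The elongation factor genes were also compared with each other. SUPT6H minus SUPT16H was -0.95 and -0.93 with SSRP1 siRNA and -1.38 and -1.38 with control siRNA, a difference of 0.44 between the changes of these histone chaperone genes (exact permutation p = 0.333, two-sided, the smallest possible). SUPT6H minus SUPT5H was 0.53 and 0.31 with SSRP1 siRNA and 0.37 and 0.24 with control siRNA, and the groups overlapped (difference 0.11, exact permutation p = 0.667, two-sided). Without SSRP1 siRNA replicate 1 that last difference was 0.005, and without SSRP1 siRNA replicate 2 it was 0.22.

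**Figure D3:**
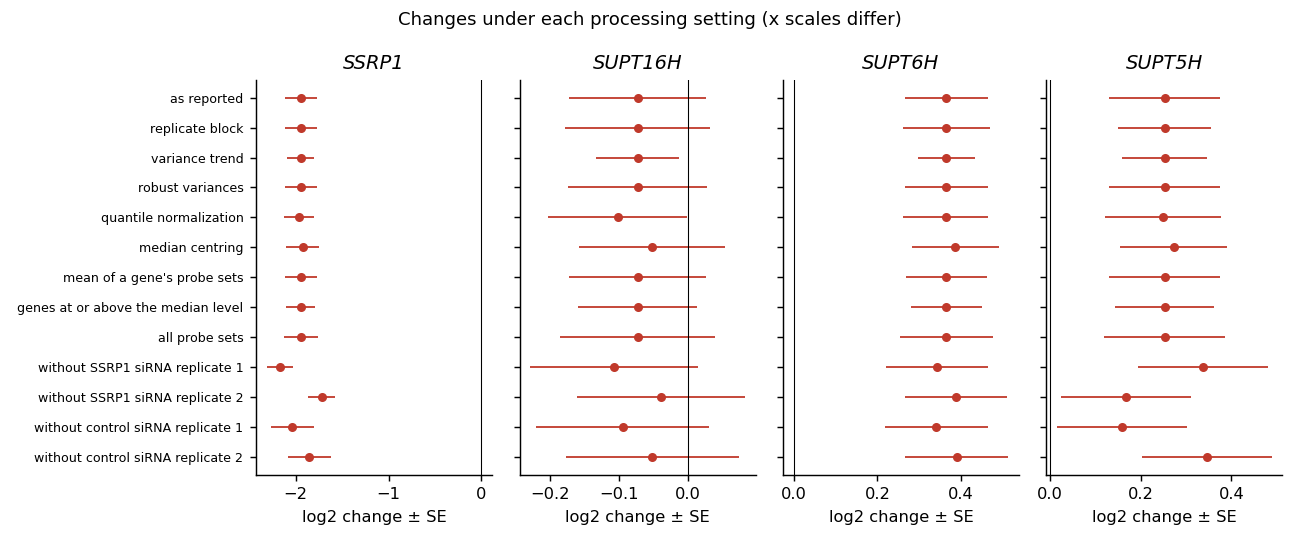
Log2 change with its SE (x axis, a scale of its own for each gene) of the 4 genes under each processing setting (rows). Every SSRP1 value lies between -2.17 and -1.72, every SUPT16H value between -0.11 and -0.04, and every SUPT6H and SUPT5H value above 0.

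The other genes of this machinery were read from 8 lists, of which 38 of 73 genes were named in the table. None of the 38 passed the limma test. At an unadjusted p under 0.05 there were 5, of which 3 were higher and 2 lower, against 12.6% of all genes. The median change over the 38 was -0.02, against -0.007 over all genes. Groups did not overlap for 11 genes in the upward and 12 in the downward direction, against 21.8% and 22.5% of all genes.

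NELF, the complex that holds the paused polymerase together with DSIF, and SUPT4H1 had 4 of 5 genes named, 1 of them above 0. Their median change was -0.05, and NELFA and NELFB, both NELF subunits, had changes of -0.15 and -0.11 (limma adjusted p = 0.639 and 0.733). In the list of P-TEFb, the kinase that releases the paused polymerase, and its control factors 4 of 6 named genes lay above 0, with a median of 0.20. Of all 14812 genes, 7148 lay above 0. Groups did not overlap for 4 of these 6 in the upward and 0 in the downward direction, against 21.8% and 22.5% of all genes. CCNT2, a cyclin of P-TEFb, had log2 values of 5.40 and 5.32 with SSRP1 siRNA, against 4.79 and 5.11 with control siRNA. Its change was 0.41 (limma adjusted p = 0.341), and CDK9, the kinase itself, had a change of 0.20 (adjusted p = 0.489). HEXIM1, which holds P-TEFb inactive on the 7SK RNA, had a change of 0.50 (limma adjusted p = 0.373) on the brighter of its 2 probe sets and of -0.61 on the dimmer one, so its direction depends on the probe set. With each gene's probe sets averaged, 3 of the 6 genes of this list lay above 0 and their median was 0.07.

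No gene of the remaining elongation lists passed the test. Of 10 super elongation complex genes 4 were named, with a median of 0.02 and values from -0.03 to 0.04. EAF1 and EAF2, partners of the ELL elongation factors, had changes of -0.03 and 0.02, and ELL one of 0.04 (limma adjusted p between 0.948 and 0.967). SKIC8, the 1 named gene of the PAF1 complex, which loads onto the elongating polymerase, had a change of -0.04 (adjusted p = 0.919). In the list of SPT6 partners, elongation kinases and cleavage factors 6 of 13 genes were named, 2 above 0 and 4 below, with a median of -0.06. Groups did not overlap for 1 of these 6 in the upward and 4 in the downward direction, against 21.8% and 22.5% of all genes. IWS1, which binds SPT6, had a change of -0.11. CDK13, a kinase of the polymerase tail, had a change of 0.17, and CCNK, its cyclin, one of -0.08 (limma adjusted p between 0.616 and 0.785 for these). CHD1, a nucleosome remodeller that has been found with FACT, had log2 values of 8.50 and 8.27 with SSRP1 siRNA, against 8.60 and 8.55 with control siRNA, a change of -0.19 (adjusted p = 0.581).

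**Figure D4:**
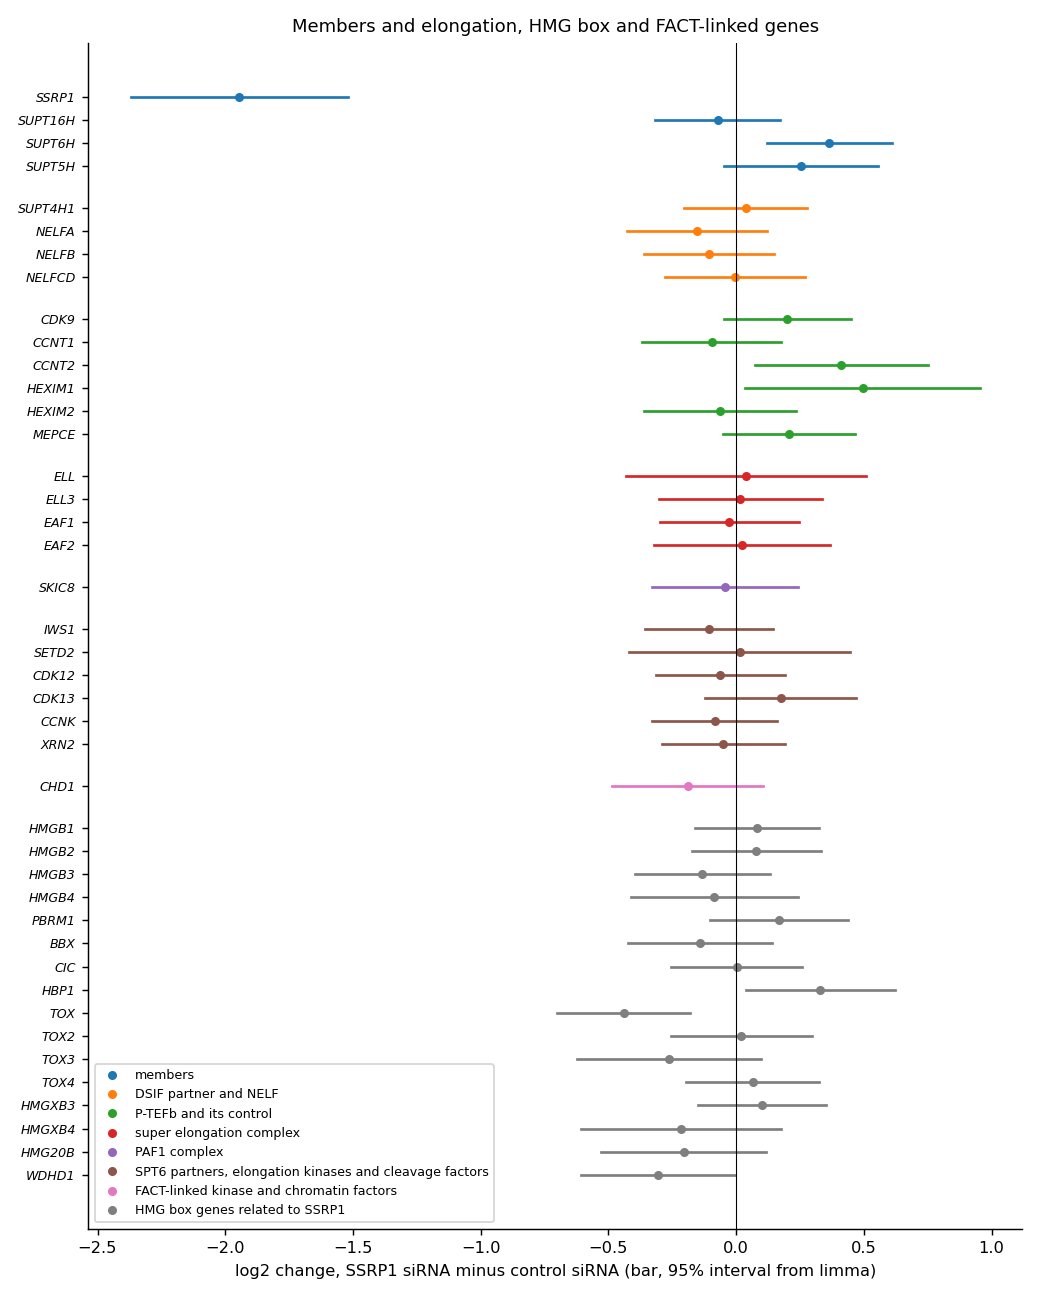
Log2 change, SSRP1 siRNA minus control siRNA (x axis), with its 95% interval from limma, of the 4 genes and of the 38 named list genes, coloured by list. SSRP1 (-1.95) stands alone at the left, and the list genes lie between -0.44 (TOX) and 0.50 (HEXIM1).

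SSRP1 carries an HMG box, and 16 of 20 listed relatives with this DNA-binding fold were named. They were split evenly, 8 above and 8 below 0, with a median of -0.04 and none past the test. TOX, an HMG box factor best known from T cell development, had log2 values of 8.83 and 8.82 with SSRP1 siRNA, against 9.33 and 9.19 with control siRNA. Its change was -0.44 ± 0.11 (SE, limma adjusted p = 0.223), the smallest p among all 38 list genes. With a variance trend it passed (limma adjusted p = 0.0377), a setting under which 215 of all 14812 genes passed, against 14 in the main fit. WDHD1, a replication fork factor, had a change of -0.31 (limma adjusted p = 0.389), and HBP1, an HMG box repressor of cell cycle genes, one of 0.33 (limma adjusted p = 0.358). HMGB1 and HMGB2, the abundant chromatin HMG proteins, had changes of 0.08 each and were named after their values were seen. The HMGB1 probe set read low, with a mean of 4.52, below the median gene (4.64). The list of H2A variant genes had none of its 6 genes named and is not analysed here.

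Genes with array profiles most like SSRP1 and SUPT6H were found by the Euclidean distance between the 4 centred log2 values, among 7405 genes at or above the median level. Nearest to SSRP1 was ARHGEF28, at a distance of 0.616, against a median distance of 1.98. HEATR5A followed at 0.750, then CNTFR, a receptor for ciliary neurotrophic factor, at 0.874, the fibroblast growth factor family gene FGF11 at 0.913 and the histamine receptor gene HRH3 at 0.925. ARHGEF28 had log2 values of 4.43 and 4.68 with SSRP1 siRNA, against 6.21 and 6.14 with control siRNA, and of these 5 it alone passed the limma test (adjusted p = 0.0356). The changes of the other 4 lay between -1.23 and -1.06, with adjusted p between 0.0539 and 0.142. No gene lay within 0.25 of SSRP1.

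SUPT6H had many genes near it, 1083 of 7405 within 0.25. The nearest was ATP13A1, an ion-pump family ATPase of the endoplasmic reticulum, at 0.021. DDRGK1, a factor of UFM1 modification, lay at 0.035, CHPF2, a chondroitin polymerising factor, at 0.044, and CLGN, a chaperone of the endoplasmic reticulum, and the ubiquitin ligase gene RNF25 at 0.046 each. Their changes lay between 0.33 and 0.41, with limma adjusted p between 0.223 and 0.300. Distances over 4 arrays in 2 groups mostly reflect the size and direction of the group difference.

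**Figure D5:**
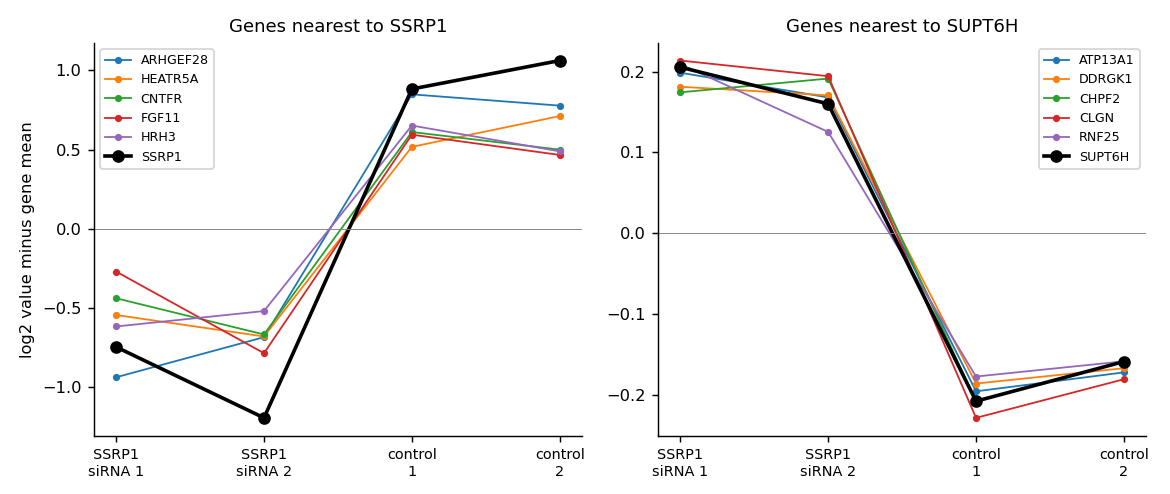
Log2 value minus the gene's mean (y axis) on the 4 arrays (x axis) for SSRP1 with its 5 nearest genes and for SUPT6H with its 5 nearest genes. Lines link the points of 1 gene and imply no order of arrays, and the y scales differ. SSRP1 changes more than any gene near it, while the genes near SUPT6H follow it closely.

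Neighbouring genes on the chromosome were examined after the other values had been seen. For each of the 4 genes the 2 nearest named genes on either side in the RefSeq order (GRCh38.p14) were read, 16 in all, and none overlapped it in that annotation. None passed the limma test, 9 lay above 0 and 7 below, and the groups did not overlap for 7 of the 16, against 44.3% of all genes. Beside SSRP1 on chromosome 11, the apelin receptor gene APLNR had a change of -0.33 and the eosinophil granule gene PRG3 one of 0.26 (limma adjusted p = 0.645 and 0.496), and one gene further out LRRC55 and RTN4RL2 had changes of 0.12 and -0.21. Beside SUPT16H on chromosome 14, RPGRIP1 had a change of -0.13 and CHD8, a chromatin remodeller gene, one of -0.02 (limma adjusted p = 0.796 and 0.961), and further out HNRNPC and TOX4 had changes of 0.23 and 0.06. Beside SUPT6H on chromosome 17, SDF2 and PROCA1 had changes of 0.05 and -0.04 (limma adjusted p = 0.927 and 0.912). Further out, BLTP2 on one side had a change of -0.22 and TLCD1 on the other one of 0.39 (limma adjusted p = 0.511 and 0.305), both with groups that did not overlap. Beside SUPT5H on chromosome 19, the ribosomal protein gene RPS16 had a change of 0.31 and the mitochondrial import gene TIMM50 one of 0.03 (limma adjusted p = 0.542 and 0.935). Further out, MIR4530 had a change of 0.17, and DLL3, a Notch ligand gene, had log2 values of 6.04 and 6.03 with SSRP1 siRNA, against 6.76 and 6.74 with control siRNA, a change of -0.72 (limma adjusted p = 0.103).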

How the data were processed

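The authors deposited log2 values, 1 per probe set and array. RMA is the method that the submitters' processing notes name, with no software, version or probe set definition given in these sources. The log2 scale was read from the values (0.502 to 12.8). RMA aligns the arrays' distributions, so a shift of all transcripts would not show. Of 46255 probe sets, 15835 had 1 gene symbol in the platform annotation, 0 had several and 30420 were unnamed here. Symbols were checked by gene ID in the RefSeq table (0 changed). The probe set of highest mean stood for each of 14812 genes. Each of the 4 genes had 1 probe set.

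limma 3.58.1 (R 4.3.3; lmFit, eBayes without trend) was fitted to all genes on 4 arrays, grouped by title, SSRP1 siRNA minus control siRNA, with 2 residual and 3.79 prior degrees of freedom, Benjamini-Hochberg adjustment over all genes and no filter. On data simulated for this comparison, a true log2 change of 0.5 was called in 2.3% of cases, one of 1 in 71.0% and one of 2 in 97.9% (14812 genes, 20 runs). The simulation planted its own set of changes and drew variances from the fitted prior, so these shares need not hold for the measured genes. ADRA2A, with a measured change of 2.25, did not pass (limma adjusted p = 0.0583), while SSRP1 at -1.95 did (0.0479). The number of arrays limits precision, and no detection values were used.

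Named were the 4 genes, SUPT4H1, for each list every gene past the test or else the 3 of smallest p, and the 5 nearest profiles of SSRP1 and SUPT6H. The genes and lists were chosen with earlier results of these data known. Alternatives were a replicate block, a variance trend, robust variances, quantile normalization, median centring, averaged probe sets, genes at or above the median level, all probe sets, an adjusted p under 0.1 for the count of genes, and each array left out.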

Additional observations from a re-analysis of the deposited data

How the results depend on the processing

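SUPT16H, SUPT6H and SUPT5H kept their direction and stayed outside the test under all 12 alternatives run for each. For SUPT16H the change lay between -0.102 and -0.052, and between -0.107 and -0.039 without 1 array. For SUPT6H it lay between 0.364 and 0.386, and between 0.341 and 0.390 without 1 array. For SUPT5H it lay between 0.25 and 0.273, and between 0.159 and 0.346 without 1 array. SSRP1 fell under all 12. It stayed past the test with a variance trend (limma adjusted p = 0.00314) and among genes at or above the median level (0.00625). It also did after quantile normalization (0.0250), after median centring (0.0411) and with averaged probe sets (0.0483). However, its change of -1.95 had a limma adjusted p of 0.0569 with the replicate block, 0.0512 with robust variances and 0.144 over all probe sets. Without 1 array it lay between -2.17 and -1.72, with an adjusted p from 0.241 to 0.599. The 14 genes past the test became 6 with the replicate block, 215 with a variance trend, 9 with robust variances, 28 after quantile normalization, 23 after median centring and 179 among genes at or above the median level. At an adjusted p under 0.1 there were 41. The count was 0 over all probe sets (limma, smallest adjusted p 0.0783, 3854 at an unadjusted p under 0.05) and 0 without any 1 array (1200 to 1672 at an unadjusted p under 0.05). Of the 38 list genes 1, TOX, passed with a variance trend and 0 under the other alternatives, and between 1 and 4 had an unadjusted p under 0.05 without 1 array, against 5 with all. The difference between the SSRP1 and SUPT16H changes ran from -2.06 to -1.68 without 1 array, that of SUPT6H and SUPT16H from 0.427 to 0.450, and that of SUPT6H and SUPT5H from 0.005 to 0.220. Same-numbered arrays of the groups share only a number, with a correlation of 0.114 between their deviations from the group means. The cause was not tested for any of these shifts; the fits over all probe sets and over the brighter genes changed both the number of tests and the variance prior. Levels are relative signals on 4 arrays without detection values, and dim genes may reflect background.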
